A study of Mus musculus with 4 samples.

Results

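Long cassette exons are internal exons of 300 nt or more that can be included in an mRNA or skipped. They were taken from a table of exon trios, in which a middle exon stands between its flanking exons, by the cassette label of the trio and by the length of its middle exon. Of 228333 trios, 10962 carried the cassette label, and 495 of these had a middle exon of at least 300 nt. Counting each middle exon once gave 413 long exons among 9319 cassette exons. An exon was tested at a stage when both libraries had at least 20 reads on its 3 junctions. This left 278 long exons at E18 and 286 at P1, with 266 tested at both stages, 298 at 1 or both and 115 at neither. The 298 exons lie at 277 separate loci, and 42 of them overlap another tested long exon, so not all values are independent. Just inside the length limit, the exon of 300 nt in *Ormdl2* differed by 4.7 points of percent inclusion at E18 and by -2.4 at P1. Just outside it, the 3 exons of 298 nt in *Trim46*, *Fam126a* and *Nwd1* differed by 6.5, 1.1 and 1 points at E18 and by 6.2, 2.2 and -1.2 at P1.

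The 4 groups have 1 library each, from mice labelled as of a mixed C56Bl/6:129S2 background, with the strain spelled as in the labels. At E18, whole brain of the PTBP2 Nestin-KO (NesKO), in which Cre under the nestin promoter removes exon 4 of a floxed *Ptbp2* allele in neural progenitors and their progeny, was set beside whole brain of wild-type littermates, with 2 brains of each genotype behind 1 library. At P1, cortex of 1 PTBP2 Emx-KO animal (EmxKO), in which Cre is driven by the *Emx1* promoter and acts in the excitatory lineage of the dorsal forebrain, was set beside cortex of 1 wild-type littermate. Only the P1 libraries were strand specific, so at E18 reads from an overlapping antisense gene cannot be told apart. With 1 library per group no difference between genotypes has a replicate check, and stage, tissue, Cre line and library protocol cannot be told apart between E18 and P1. The libraries held 49445721 (NesKO), 51267564 (E18 wild type), 84793098 (EmxKO) and 85073560 (P1, labelled wild type) reads on distinct junctions. The median long exon had 158.5, 171, 286 and 349 junction reads in the same order.

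The targeted exon was read first. *Ptbp2* exon 4 was skipped in 100% (95% Wilson interval, 98.5 to 100%) of the junction reads in the NesKO and in 0.225% (0.0398 to 1.26%) in the E18 wild type. The EmxKO skipped it in 82.6% (79.9 to 85.1%), and the P1 library labelled wild type in 31.5% (29.5 to 33.7%). The skipping in that last library goes in part against its label. It is therefore called the P1 library labelled wild type, and every P1 direction below rests on it, since without it P1 has no comparison. In the marker genes of the tissues, the summed reads of 6 neuronal genes were 1860 and 2190 per 1000000 distinct-junction reads in the NesKO and its wild type and 2870 and 2960 in the EmxKO and the library beside it. The members did not move together. *Tubb3* had 944 and 973, and 1500 and 1190 in the same order, *Snap25* 88.3 and 189, and 63 and 124, *Syt1* 84.4 and 186, and 141 and 149, and *Map2* 269 and 384, and 362 and 626. *Stmn2* had 367 and 339, and 642 and 744, and *Rbfox3* 111 and 121, and 162 and 129. Thus *Stmn2* was higher in the NesKO, and *Tubb3* and *Rbfox3* were higher in the EmxKO. The 3 microglial genes measured summed to 93.3 and 69.1, and to 52.8 and 39, higher in both knockouts. *Csf1r*, with 71.0 and 51.6, and 43.6 and 28.6, made up most of these sums. *C1qa* was also higher in both knockouts, with 9.4 and 5.6, and 3.61 and 2.12. *Ctss* had 12.9 and 11.9, and 5.54 and 8.33, and was thus lower in the EmxKO. The 3 erythroid genes summed to 1390 and 1070 at E18 and to 158 and 165 at P1. *Hoxb3*, a hindbrain gene, had 0.93 and 2.63 at E18 and 0 at P1. *Gfap*, of astrocytes, had 64.4 and 23.2 at E18 and 28.2 and 12.0 at P1, higher in both knockouts, while all 4 astrocyte genes summed to 287 and 365, and to 272 and 249. The part of these differences in the results below was not tested. These are bulk samples, in which fewer cells of a type and less RNA per cell cannot be told apart.

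PTBP2 is the neuronal member of the polypyrimidine tract binding proteins, which bind CU-rich stretches of pre-mRNA near alternative exons and most often repress them. It takes over from PTBP1 when progenitors become neurons, and its level falls as neurons mature. Most internal exons of vertebrates are much shorter than the exons described here, and the splicing machinery recognizes a short exon most easily as 1 unit. A long exon can add a whole protein domain, and a long exon can also hold a start codon or a stop codon.

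An inclusion value rests on reads that cross 3 kinds of junction. They are shown for exons in which inclusion differed between the libraries, with 15 bases on each side, 5′ to 3′ on the sense strand, the middle exon in capitals and its neighbors in lower case. The letters were read from the GENCODE M21 transcripts on GRCm38, and the middle exon is placed by its mm9 coordinates in the authors' files. The 801-nt exon of *Ncam1* is at chr9:49314958-49315758 on the minus strand, and the 348-nt exon of *Nptn* at chr9:58466470-58466817 on the plus strand.
Ncam1, upstream inclusion junction: gctgacagaacccgaGCTGCCTGCCGACAC
Ncam1, downstream inclusion junction: ACCAGCAAAGACCGAaaagggccctgtaga
Ncam1, skipping junction: gctgacagaacccgaaaagggccctgtaga
Nptn, upstream inclusion junction: gcgctgctcagaacgCTGGGTTTGTCAAGT
Nptn, downstream inclusion junction: TAAGCGTCCTTCAGAaaccaagaattgtca
Nptn, skipping junction: gcgctgctcagaacgaaccaagaattgtca

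The 528-nt exon of *Epb41l3* is at chr17:69615245-69615772 on the plus strand, and the 950-nt exon of *Iqsec3* at chr6:121328978-121329927 on the minus strand. The 682-nt exon of *Rbm4*, shown because it went in the other direction, is at chr19:4787361-4788042 on the minus strand.
Epb41l3, upstream inclusion junction: cggcacgagggaaagTCACCACCCGGGCAT
Epb41l3, downstream inclusion junction: AGTTCAGAGGAAGAGactgacagtgaacgg
Epb41l3, skipping junction: cggcacgagggaaagactgacagtgaacgg
Iqsec3, upstream inclusion junction: gagagctcgggggagGTATTAATCAATGCC
Iqsec3, downstream inclusion junction: TGAACAGCCCCCAGGgtgtcaattcacaac
Iqsec3, skipping junction: gagagctcgggggaggtgtcaattcacaac
Rbm4, upstream inclusion junction: acacagagtttcaagGCAAACGAATGCACG
Rbm4, downstream inclusion junction: CTTTTAAAGTTTGAGgtgggatgtgtgtgg
Rbm4, skipping junction: acacagagtttcaaggtgggatgtgtgtgg

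The 487-nt exon of *Aen*, at chr7:86047230-86047716 on the plus strand, is shown because its change had opposite directions at the 2 stages. A second exon of *Aen*, of 601 nt, ends at the same base and starts upstream, so both share the downstream junction and the skipping junction.
Aen, upstream inclusion junction: cggccgggttttcagCCTGAATACCAAGGA
Aen, downstream inclusion junction: GTGGCCCAGAAGGAGatccttaagctgttg
Aen, skipping junction: cggccgggttttcagatccttaagctgttg

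Inclusion is given in 2 ways. PSI is the inclusion ratio that SpliceTrap estimated from exon and junction reads after its own correction, in percent. Junction PSI uses junction reads alone: the mean of the upstream and downstream inclusion reads is divided by that mean plus the skipping reads. By these reads the cassette label was borne out for part of the long exons. Of the 298 tested, 229 (76.8%) had at least 3 skipping reads in 1 or more libraries and 33 (11.1%) had none in any library. In all cassette exons these shares were 86.1% and 5.34%. Junction PSI was between 10 and 90 in at least 1 library for 133 long exons (44.6%) and over 90 in every library with 20 reads for 134 (45.0%, against 33.7% of all cassette exons). The median PSI of the long exons was 87.9 in the NesKO, 86.9 in the E18 wild type, 87.3 in the EmxKO and 87.0 in the P1 library labelled wild type. Over all cassette exons it was 81.0, 78.7, 79.7 and 77.0.

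The tested long exons were 300 to 8104 nt in length with a median of 494 nt. Of these, 151 had 300 to under 500 nt, 78 had 500 to under 1000 nt and 69 had 1000 nt or more. The length was divisible by 3 in 128 (43.0%), against 50.3% of all cassette exons, whether coding or not. Of 281 long exons matched to a transcript, 144 (51.2%) were coding throughout and 66 (23.5%) held the start of the coding sequence, while all matched cassette exons had shares of 65.7% and 5.96%. Among the 144 coding throughout, 90 (62.5%) had a length divisible by 3, so that skipping keeps the reading frame. The share was 58.9% in all cassette exons coding throughout. The end of the coding sequence lay in 24, and 27 were untranslated. A splice site was shared with an annotated first or last exon in 130 (46.3%), against 29.2% of all. The median intron upstream was 3150 nt and the median intron downstream 2803 nt, against 1981 and 1962 nt. The median share of C and T within the exon was 48.4%, against 47.9% for all cassette exons. The letters CTCTCT, searched on the sense strand as an example of a CU-rich element, were found in the first 100 bases of 9 of the 281 long exons (3.2%) and of 4.05% of all cassette exons of at least 100 nt. All these shares are descriptions with no test.

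At E18, 34 of 278 long exons (12.2%) differed by at least 10 PSI points between the NesKO and the wild type, and 10.9% of all cassette exons did. PSI was higher in the NesKO for 25 of them (8.99%, background 6.98%) and lower for 9 (3.24%, background 3.94%). At P1, 37 of 286 (12.9%) differed between the EmxKO and the library labelled wild type, against 9.42% of all cassette exons. Of these, 27 were higher in the EmxKO (9.44%, background 6.83%) and 10 were lower (3.5%, background 2.59%). The median difference over the long exons was 0 points at both stages, and its median size was 1.45 points at E18 and 1.2 at P1, against 1.6 points at both stages in all cassette exons. The shares of the long exons lie near the background, and no test sets them apart from shorter exons.

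By junction PSI, 29 long exons differed by 10 points at E18 (10.4%, background 11.3%), 17 higher and 12 lower, so that the split between directions was more even than by PSI. At P1 it was 35 (12.2%, background 9.88%), 24 higher and 11 lower. A stricter limit of 20 PSI points left 8 at E18 (2.88%, background 2.85%) and 4 at P1 (1.4%, background 1.96%). The reads alone differed, by Fisher's exact test with an adjusted p below 0.05, for 16 at E18 (5.76%, background 4.43%) and 23 at P1 (8.04%, background 8.47%). Of the exons that differed by 10 PSI points, 9 at E18 (background 2.77%) and 11 at P1 (background 3.6%) also passed this test. These tests compare the reads of 2 libraries, not the genotypes.

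When the same direction and at least 10 points were asked of both measures, together with the exact test, 9 long exons were left at E18 (3.24%, background 2.67%) and 11 at P1 (3.85%, background 3.29%). At E18, 7 of these were higher in the NesKO and 2 lower, and at P1 9 were higher in the EmxKO and 2 lower. The 2 lower at P1 were the overlapping exons of *Aen*, which share the downstream and the skipping junction. Together these are 16 different exons, and 4 passed at both stages. Those of *Ncam1*, *Nptn* and *Epb41l3* were higher in both knockouts, while the 487-nt exon of *Aen* went in opposite directions. For all cassette exons, the directions of these strict calls and the number passing at both stages are not given here. By 10 PSI points alone, all cassette exons also leaned higher, with 471 higher and 266 lower at E18 and 474 and 180 at P1. The lean is thus not particular to long exons. Of the 16, 9 were coding throughout, with a length divisible by 3 in 7. Another 4 held the start and 1 the end of the coding sequence, and 2 were untranslated or in a noncoding transcript. A splice site was shared with an annotated first or last exon in 7 of the 16, against 46.3% of the matched long exons. These are both exons of *Aen* and those of *Ankra2*, *Rbm4*, *Mtf2*, *Fut10* and *Zbtb49*. Junction reads at a shared site may come from either form of the exon.

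Within the long exons, the class of 500 to under 1000 nt had the highest share past 10 PSI points at both stages, 15 of 73 (20.5%) at E18 and 12 of 73 (16.4%) at P1. Exons of 300 to under 500 nt had 17 of 141 (12.1%) and 18 of 145 (12.4%). Exons of 1000 nt or more had 2 of 64 (3.12%) at E18, both lower in the NesKO, and 7 of 68 (10.3%) at P1, 5 of them higher in the EmxKO. The longest class had the most junction reads, with medians of 230 and 274 per exon in the E18 libraries against 144 and 159 in the class of 500 to under 1000 nt. By junction PSI the class of 500 to under 1000 nt had 10 of 73 (13.7%) at both stages, and the shorter long exons 10.6% and 13.1%. By the exact test on the reads with an adjusted p below 0.05 the order was another, with exons of 1000 nt or more at 6.25% and 11.8%, those of 500 to under 1000 nt at 5.48% and 9.59% and those under 500 nt at 5.67% and 5.52%. No order of the length classes thus held for every measure. The plot of shares by length, by PSI, shows these classes beside the shorter cassette exons.

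**Figure D1:**
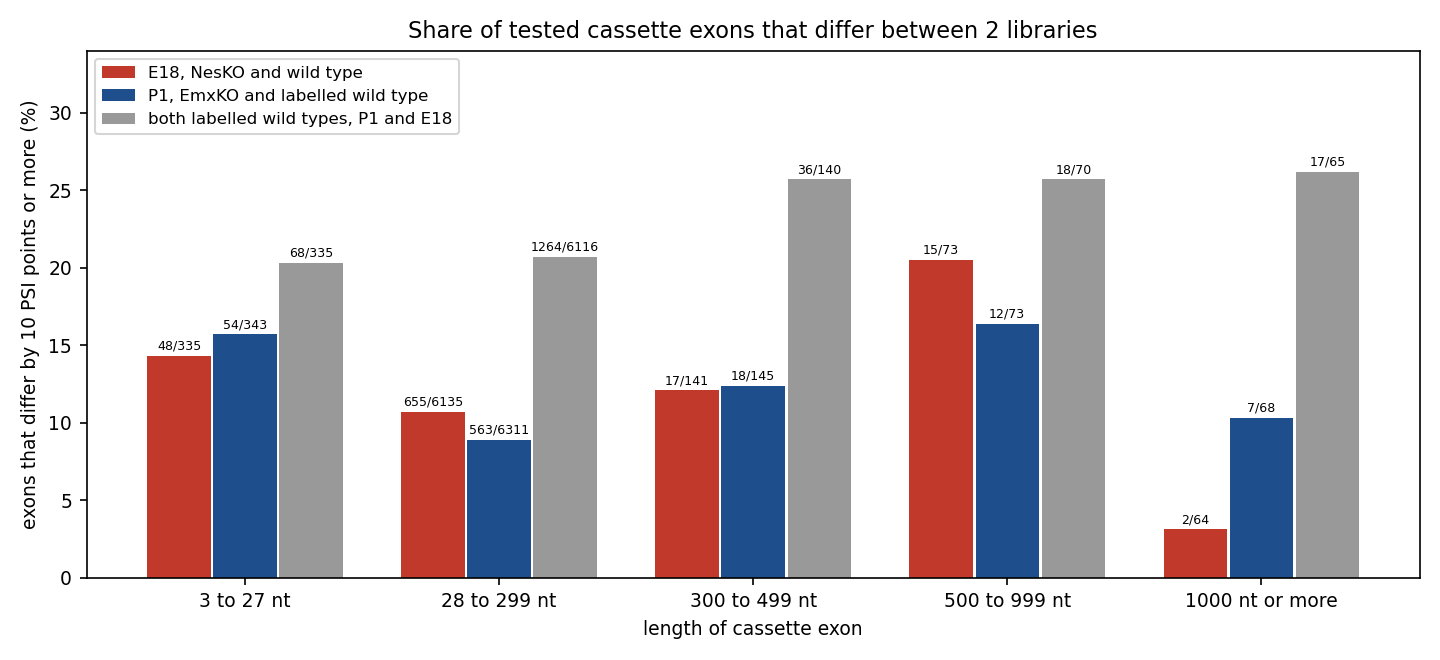
Share of the tested cassette exons (y axis, percent) that differed by 10 PSI points or more between 2 libraries, by exon length in nt (x axis), with the number of exons over the number tested above each bar. Red bars are E18, blue bars P1 and grey bars the libraries labelled wild type of both stages, and exons of 500 to under 1000 nt stand at 20.5% and 16.4% at E18 and P1 while those of 1000 nt or more stand at 3.12% and 10.3%.

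Among adhesion molecules, *Ncam1* and *Nptn* had long exons that were higher in both knockouts. *Ncam1* encodes the neural cell adhesion molecule, and its 801-nt exon, exon 19 of 20, adds 267 codons to the cytoplasmic tail of the long isoform of the protein. PSI was 76.2 in the NesKO, 55.2 in the E18 wild type, 73.5 in the EmxKO and 53.3 in the P1 library labelled wild type. Both knockout libraries were thus above both others. Junction PSI was 81.6 (95% Wilson interval, 80.3 to 82.8), 61.7 (60.2 to 63.2), 72.0 (70.8 to 73.1) and 50.2 (48.8 to 51.6). The difference was 21 PSI points at E18 (Fisher's exact test on the reads, adjusted p = 2.7e-83) and 20.2 points at P1 (exact test, adjusted p = 1e-114). The exon body was higher in the knockout within each stage, with reads per 100 nt at 50% and 35.9% of the mean of its neighbors at E18 and 73.3% and 52.8% at P1, so that across stages the NesKO lay below the P1 library labelled wild type. The inclusion junctions were uneven at E18, with 5403 upstream and 576 downstream reads in the NesKO, and less so at P1, with 5376 and 2992 in the EmxKO. *Ncam1* was the 1 gene of a list of 25 adhesion and synapse genes with a tested long exon.

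*Nptn* encodes neuroplastin, an adhesion protein of the immunoglobulin superfamily, and its 348-nt exon, exon 2 of 8, encodes the additional immunoglobulin domain of the larger, brain-enriched form. PSI was 30.9 in the NesKO, 18.2 in the E18 wild type, 23.7 in the EmxKO and 10.3 in the P1 library labelled wild type. Here, too, both knockout libraries were above both others. Junction PSI was 30.8 (27.4 to 34.4), 16.7 (14.1 to 19.7), 22.7 (21 to 24.6) and 10.1 (8.91 to 11.4). The difference was 12.7 PSI points at E18 (exact test, adjusted p = 1.2e-07) and 13.4 at P1 (exact test, adjusted p = 6.4e-28).

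*Tnr* encodes tenascin-R, a matrix protein of the brain, and PSI of its 477-nt exon was 57.7, 58.2, 66.6 and 46.8 in the NesKO, E18 wild type, EmxKO and P1 library labelled wild type. It was higher in the EmxKO by 19.8 points (exact test, adjusted p = 0.019), but its upstream junction had 0 reads in every library. All inclusion reads came from the downstream junction, so that with the less covered junction alone the adjusted p was 1.0.

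**Figure D2:**
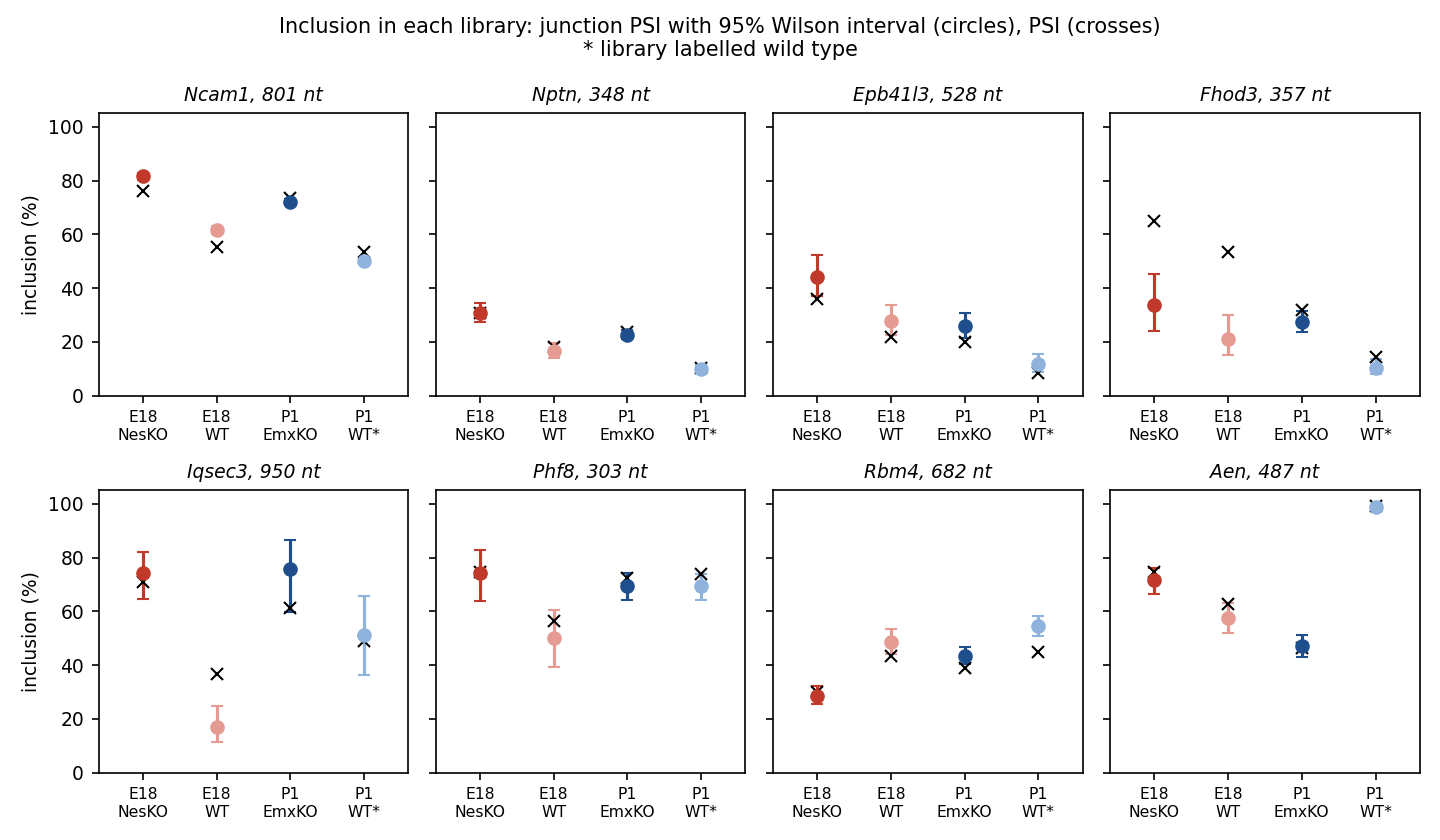
Inclusion of 8 long exons (y axis, percent) in each of the 4 libraries (x axis), with junction PSI and its 95% Wilson interval as circles and PSI as crosses, and WT* for the P1 library labelled wild type. *Ncam1* and *Nptn* stand higher in both knockouts by both measures, *Rbm4* stands lower in the NesKO at 30 PSI, and *Aen* stands at 99.1 PSI in the P1 library labelled wild type and between 46.4 and 74.5 elsewhere.

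*Epb41l3* encodes a band 4.1 protein that links membrane proteins to the spectrin and actin skeleton, and its 528-nt exon, exon 8 of 17, adds 176 codons. PSI was 36.0 in the NesKO, 21.9 in the E18 wild type, 20 in the EmxKO and 8.6 in the P1 library labelled wild type. Junction PSI was 44.3 (36.9 to 52.4), 27.7 (22.5 to 33.9), 25.8 (21.3 to 30.8) and 11.7 (8.91 to 15.5). Each knockout was above the library beside it, and both E18 libraries were above their P1 counterparts. The differences were 14.1 points at E18 (exact test, adjusted p = 0.022) and 11.4 points at P1 (exact test, adjusted p = 6.7e-05). At E18 the upstream junction had more reads than the downstream one, 97 against 40 in the NesKO, and with the less covered junction alone the adjusted p was 0.33.

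*Fhod3*, a formin that assembles actin filaments, has a 357-nt exon of 119 codons with PSI of 65.1 in the NesKO, 53.5 in the E18 wild type, 31.7 in the EmxKO and 14.3 in the P1 library labelled wild type. Junction PSI was 33.8 (24.0 to 45.1), 21.2 (15 to 29.9), 27.3 (23.5 to 31.6) and 10.4 (8.01 to 13.7), and thus far below PSI at E18. Both measures were higher in each knockout. Only the P1 difference of 17.4 points passed the exact test on the reads (adjusted p = 3.6e-09, and 0.3 with the less covered junction alone), while the E18 difference of 11.6 points had an adjusted p of 0.5 by the same exact test.

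The cytoskeleton list of 34 genes held 9 tested long exons in 8 genes, of which 1, in *Epb41l3*, was higher by 10 points at each stage and none lower. Their median difference was 0.4 points at E18 and -0.2 at P1, against 0 and 0.2 in all cassette exons. The other band 4.1 genes did not share the pattern of *Epb41l3*. The 450-nt exon of *Epb41*, which encodes the band 4.1 protein first found in red cells, had PSI of 5.8, 6.7, 4.8 and 4.1. The 408-nt exon of *Epb41l1*, of the neuronal relative, was between 98.3 and 99.4 in all libraries. The 315-nt exon of *Epb41l2* had PSI of 92.4, 99.4, 86.0 and 88.5, and its junction PSI at E18 was 79.2 (70.6 to 85.9) in the NesKO against 97.5 (92.9 to 99.1) in the wild type (exact test, adjusted p = 0.00042). Its PSI difference of -7.0 points stayed under the cutoff.

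*Macf1* and *Dst* encode spectraplakins, giant proteins that link actin filaments and microtubules, and each had an exon of 327 nt. The exons are 61.2% identical over 200 matching bases of 327. The *Macf1* exon had PSI of 29.4, 28, 16.1 and 16.6, and the *Dst* exon 19.0, 16.7, 8.7 and 8.9, in the NesKO, E18 wild type, EmxKO and P1 library labelled wild type. In both genes the 2 libraries of a stage were within 2.3 points, and the E18 libraries were above the P1 libraries. The overlapping *Ank1* exons of 375 and 387 nt, of an ankyrin that anchors membrane proteins to spectrin, were between 98.0 and 99.9 everywhere.

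*Iqsec3*, an exchange factor for ARF GTPases found at inhibitory synapses, had the highest difference at E18 among the 9 exons that passed by both measures. Its 950-nt exon is untranslated in the matched transcript, which is annotated as a target of nonsense-mediated decay. PSI was 71.0 in the NesKO, 36.6 in the E18 wild type, 61.3 in the EmxKO and 48.9 in the P1 library labelled wild type. Junction PSI was 74.2 (64.5 to 82.0), 17.1 (11.4 to 24.7), 75.7 (59.9 to 86.6) and 51.2 (36.5 to 65.7). Both knockouts were above both other libraries. The difference of 34.4 points at E18 passed (exact test, adjusted p = 3.1e-15). At P1 the 12.4 points rested on 65 and 62 junction reads and did not (exact test, adjusted p = 0.25).

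*Rbm4*, which is not in the RNA binding list described next, encodes an RNA-binding regulator of splicing and translation, and its 682-nt exon, exon 3 of 4, holds the end of the coding sequence. PSI was 30 in the NesKO, 43.3 in the E18 wild type, 39.1 in the EmxKO and 44.9 in the P1 library labelled wild type. Junction PSI was 28.7 (25.6 to 32.2), 48.7 (44.0 to 53.4), 43.6 (40.5 to 46.8) and 54.6 (51.0 to 58.2). Both knockouts were below both other libraries. The difference was -13.3 points at E18 (exact test, adjusted p = 2.2e-09), and -5.8 points at P1, where the reads differed (exact test, adjusted p = 0.00022) but PSI stayed under the cutoff. A near-identical neighboring gene, *Rbm4b*, exists, and reads shared by the copies cannot be assigned with certainty.

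The RNA binding list of 36 genes held 4 tested long exons. None was higher by 10 points, 1 was lower at E18, and the median difference was -1.7 points at E18 and 0.1 at P1. For *Srsf3*, *Srsf7* and *Tra2a*, which encode SR proteins or a relative of them, the exon lies in a transcript annotated as a target of nonsense-mediated decay, and each holds the end of the coding sequence, as poison exons do. The 456-nt exon of *Srsf3* had PSI of 11.4, 12.1, 13.4 and 11.3, which differed little. The 460-nt exon of *Srsf7* had PSI of 17.7, 20.4, 24.4 and 27.7, while its junction PSI was 12.3 (9.69 to 15.6) in the NesKO against 24.6 (21.6 to 27.9) in the E18 wild type (exact test, adjusted p = 6.1e-06). The 306-nt exon of *Tra2a* had PSI of 13.8, 24.1, 34.8 and 35.7, lowest in the NesKO, and its difference of -10.3 points at E18 had an adjusted p of 0.051 by the exact test. The 1049-nt exon of *Mbnl1*, of the muscleblind splicing factor, holds the start of the coding sequence and was at 98.8 to 99.9 throughout.

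The exons of *Phf8*, *Mtf2* and *Zbtb49* also passed, and these genes are not in the chromatin and transcription list. *Phf8* encodes a histone demethylase, and its 303-nt exon of 101 codons had PSI of 74.7 in the NesKO, 56.3 in the E18 wild type, 72.6 in the EmxKO and 73.8 in the P1 library labelled wild type. The E18 wild type stood below the other 3 libraries, and the 18.4 points at E18 passed (exact test, adjusted p = 0.045). *Mtf2*, of a Polycomb-associated protein, had PSI of 47.2, 43.7, 50.9 and 37.4 in its 362-nt exon, which lies in a transcript with no coding sequence. Its 13.5 points at P1 passed (exact test, adjusted p = 0.0059), but its inclusion reads were nearly all on 1 junction, 151 against 5 in the EmxKO, and the less covered junction alone gave 0.3. *Zbtb49*, a zinc finger transcription factor, was lower in the NesKO in its 1076-nt exon, with PSI of 83.1, 96.5, 87.3 and 94.6 and a difference of -13.4 points at E18 (exact test, adjusted p = 0.018, and 0.55 with the less covered junction alone).

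Of the list of 39 chromatin and transcription genes only *Mbd5* and *Zfp277* had a tested long exon. *Mbd5*, of a methyl-CpG-binding domain protein, was at 98.9 to 99.9 in its 1203-nt exon. The 378-nt exon of *Zfp277*, a zinc finger gene, had PSI of 55.9, 52.0, 59.9 and 49.2, where junction PSI was 3.2, 3.83, 6.55 and 4.2. Its 10.7 PSI points at P1 thus stand beside 2.4 points by junction reads (exact test, adjusted p = 0.96).

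*Aen* encodes an exonuclease induced by p53 that acts in apoptosis, and its long exons hold the start of the coding sequence. The 487-nt exon had PSI of 74.5 in the NesKO, 62.6 in the E18 wild type, 46.4 in the EmxKO and 99.1 in the P1 library labelled wild type. The last library stood apart, with 5 skipping reads, while the EmxKO had 314 and the E18 libraries 87 and 126. Junction PSI was 71.6 (66.3 to 76.3), 57.6 (51.9 to 63.1), 47.1 (43.2 to 51.2) and 99.0 (97.6 to 99.6). The difference was 11.9 points at E18 (exact test, adjusted p = 0.011) and -52.7 points at P1 (exact test, adjusted p = 1.4e-93), the largest difference at P1 but for the overlapping 601-nt exon. The 601-nt exon had 69.8, 58.7, 43.4 and 98.9. Its difference of 11.1 points at E18 had an adjusted p of 0.22 and that of -55.5 points at P1 an adjusted p of 2.7e-90 by the exact test.

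*Ankra2*, of an ankyrin repeat protein, has a 382-nt exon that holds the start of the coding sequence, with PSI of 92, 81.1, 91.6 and 94.7 in the NesKO, E18 wild type, EmxKO and P1 library labelled wild type. The E18 wild type was the lowest, and the 10.9 points at E18 passed (exact test, adjusted p = 0.0019, and 0.066 with the less covered junction alone). *Pcmtd1*, whose product resembles protein-repair methyltransferases, had PSI of 82.2, 87.1, 74.0 and 59.4 in its 422-nt exon, and the 14.6 points at P1 passed (exact test, adjusted p = 0.047, and 0.11 with the less covered junction alone). *Fut10*, of the fucosyltransferase family, had PSI of 88.6, 87.1, 99.6 and 83.0 in its 836-nt exon. Its EmxKO value rests on 1 skipping read among 61 junction reads, and the 16.6 points at P1 had an adjusted p of 0.026 by the exact test and 0.21 with the less covered junction alone.

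The trafficking and signalling list of 33 genes had 5 tested long exons in 4 genes. At E18, 2 were higher by 10 points and none lower, at P1 none differed by 10 points, and the median difference was 1.1 and 3.7 points. *Wnk1* encodes a kinase that controls ion transport, and its 462-nt exon had PSI of 93.2, 80.6, 92.1 and 88.4, with 12.6 points at E18 that did not pass (exact test, adjusted p = 0.07). Its 1236-nt exon was mostly skipped, at 8.8, 9.9, 6.4 and 7.0. *Sgip1*, of an endocytic protein, had PSI of 53.4, 41.1, 27.3 and 18.5 in its 498-nt exon, higher in each knockout than in the library beside it, without passing at E18 (exact test, adjusted p = 1.0) or P1 (exact test, adjusted p = 0.083). Its junction PSI was 25, 17.5, 24.3 and 14.6 in the same order. By junction reads the E18 difference was thus 7.5 points, under the cutoff. *Sorbs2*, of an adaptor protein with SH3 domains, was at 93.0 to 97.2 in its 1581-nt exon. *Rapgef6*, an exchange factor for Rap GTPases, had PSI of 42.0, 51.9, 63.1 and 53.2 in its 303-nt exon, with opposite signs at the stages and adjusted p of 1.0 and 0.4 by the exact test.

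The comparisons at E18 and P1 share no library. Of 266 long exons tested at both stages, 31 differed by 10 points at E18 and 33 at P1, and 14 at both. The direction was the same in 10 of the 14. These 10 are 32.3% of the 31 exons that differed at E18 and 30.3% of the 33 at P1. Of 6474 cassette exons tested at both stages, 226 differed at both, to be set beside the 14 of 266 long exons. The direction was the same in 191 of the 226 (84.5%), to be set beside the 10 of 14. The exons with a higher PSI in both knockouts were those of *Epb41l3*, *Fhod3*, *Iqsec3*, *Msh3*, *Ncam1*, *Nptn*, *Ppp4r1l-ps*, *Sh2d3c* and *Tmem164*. Those of *Epb41l3*, *Ncam1* and *Nptn* passed by both measures and the exact test at both stages. That of *Fhod3* passed at P1 alone, that of *Iqsec3* at E18 alone and the others at neither. The exon of 310 nt in *Erbin*, of a PDZ protein that binds ERBB2, was lower in both, by 15.1 and 13.3 points, and passed at neither. Opposite directions were found in both exons of *Aen*, which overlap, in *Cyld* and in *Esco1*, and the exons of *Cyld* and *Esco1* passed at neither stage. Over the 266 exons the Pearson correlation of the differences was 0.09, and 0.23 without the exons of *Aen* (n = 264). By junction PSI it was 0.2, and over 6474 cassette exons it was 0.39. These are descriptions across exons, which share libraries and are not replicates.

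**Figure D3:**
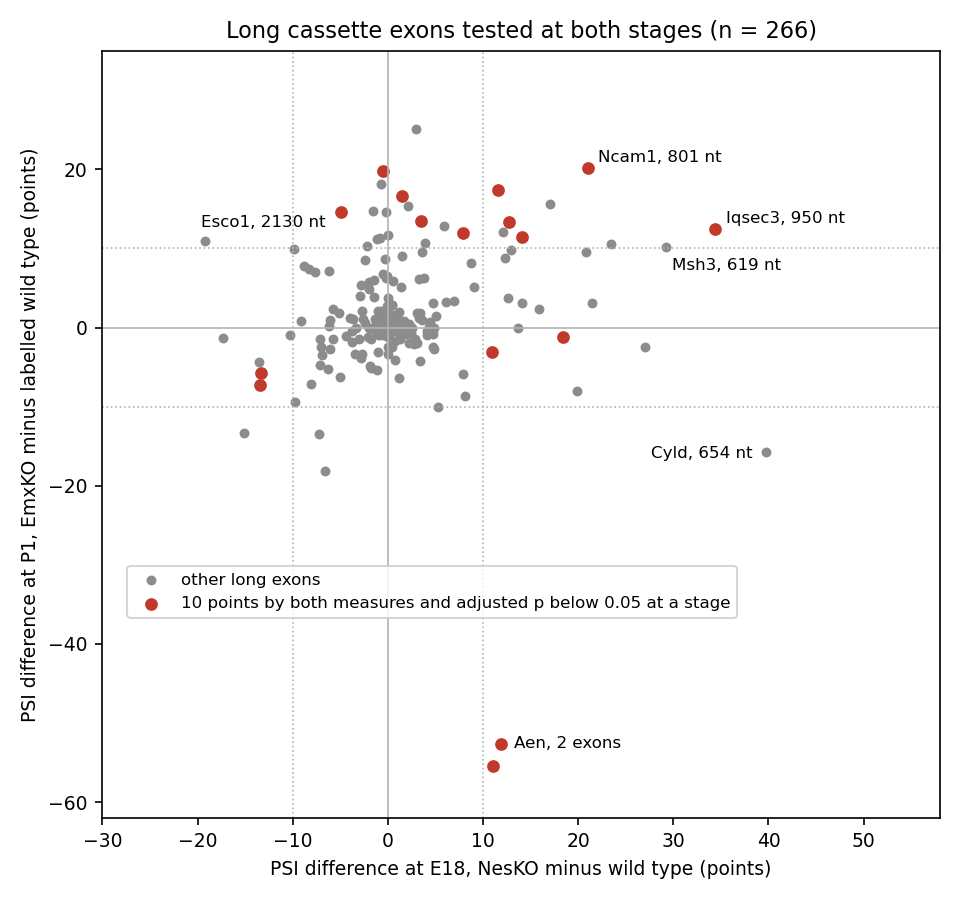
PSI difference at E18 (x axis, NesKO minus wild type, points) and at P1 (y axis, EmxKO minus the library labelled wild type, points) for the 266 long exons tested at both stages, with dotted lines at 10 points. Red points passed by both measures and the exact test at a stage, and *Ncam1* lies at 21 and 20.2 while the exons of *Aen* lie near 11 at E18 and below -50 at P1.

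These exons differed in how far junction reads stood behind them. *Tmem164*, of a membrane protein, had PSI of 90.8, 73.8, 81.2 and 65.6 in its 659-nt exon, and junction PSI of 76.5, 55.4, 78.8 and 62.4 in the same order, without passing (exact test, adjusted p = 0.52 at E18 and 0.28 at P1). The 619-nt exon of *Msh3*, a mismatch repair gene, had PSI of 75.0, 45.8, 16.2 and 6.0, but at most 2 reads on an inclusion junction in any library and a junction PSI under 4. The 654-nt exon of *Cyld*, of a deubiquitinase, went from 60.2 to 99.9 PSI at E18 and from 85.1 to 69.4 at P1, while its junction PSI lay between 95.3 and 100 in the 4 libraries.

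A test of the difference between the stages, on the reads of the 4 libraries, had an adjusted p below 0.05 for 7 of the 266 long exons (2.63%, background 1.44%). They lie in *Aen* (both exons), *Ankra2*, *Mprip*, *Nasp*, *Srsf7* and *Tra2a*. *Mprip*, of a protein that targets myosin phosphatase to actin, had PSI of 18.7, 23.8, 19.9 and 18.1 in its 3804-nt exon, so that the difference was -5.1 points at E18 and 1.8 at P1. *Nasp*, of a histone chaperone, had 77.4, 83.6, 49.8 and 42.6 in its 975-nt exon, with -6.2 points at E18 and 7.2 at P1. For *Ncam1* and *Nptn*, whose log2 odds ratios of inclusion were 1.46 and 1.15 at E18 and 1.35 and 1.39 at P1, the difference between the stages did not pass the test.

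The 5 longest exons tested at both stages differed by less than 10 points in both knockout comparisons. *Map1a*, of a microtubule-associated protein, has an 8104-nt coding exon with PSI of 87.2, 95.5, 94.7 and 87.3, and junction PSI of 99.5 (98.7 to 99.8), 99.1, 97.6 and 94.8 (92.3 to 96.5). The measures thus gave different orders of the libraries. The 5916-nt exon of *Naca*, which is known for its use in muscle, was skipped nearly always, with PSI of 1.0, 0.7, 0.5 and 0.6 and between 1671 and 5344 skipping reads per library. *Rai1*, of a chromatin protein, had PSI of 91.3, 95, 85.5 and 84.4 in its 5527-nt exon. The 5217-nt exon of *Vcan* encodes a region of the matrix proteoglycan versican that carries chondroitin sulfate, and its PSI was 86.3, 88.4, 96.2 and 97.4, higher at P1 in both genotypes. The 3962-nt exon of *Tro*, of the trophinin adhesion protein, was between 97.8 and 99.9.

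The libraries labelled wild type were also compared with each other. Of 275 long exons tested in both, 71 (25.8%, background 20.9%) differed by 10 points between P1 cortex and E18 brain, 46 lower at P1 (16.7%, background 11.8%) and 25 higher (9.09%, background 9.04%). Of the 71, 39 (54.9%) differed by 10 points in the same direction by junction PSI, against 74.2% of the cassette exons that differed. By junction PSI, 25 of the 71 (35.2%) were within 5 points of 0, against 10.6%. Junction PSI differed by 10 points for 59 (21.5%, background 19.4%), PSI by 20 points for 30 (10.9%, background 7.23%), and the reads for 62 (22.5%, background 20.4%) by the exact test, with 31 (background 11.3%) past both 10 PSI points and the test. Stage, tissue and library protocol cannot be told apart here, and these libraries are also those of the knockout comparisons. By both measures and the reads 29 exons in 26 genes passed (10.5%, background 10.3%), 21 lower and 8 higher at P1. *Phf14*, of a PHD finger chromatin protein, had in its 767-nt exon PSI of 84.2 in the E18 wild type and 34.1 in the P1 library labelled wild type (exact test, adjusted p = 2.3e-31), with 83.4 in the NesKO and 45.4 in the EmxKO. *Nasp* went from 83.6 to 42.6 (exact test, adjusted p = 2.5e-67), with the knockouts as given above. *Prrc2b*, of a proline-rich RNA-associated protein, had 97.1 and 74.9 in its 2061-nt exon (exact test, adjusted p = 6.3e-44). *Ptprf*, of a receptor phosphatase in axons, was lower at P1 in exons of 306 nt, with 39.0 and 18.1, and of 579 nt, with 38.5 and 25.4. *Nin*, of the centrosome protein ninein, had 29.9 and 13.9 in its 2121-nt exon (exact test, adjusted p = 1.7e-05). *Ubox5*, of a ubiquitin ligase, was higher, with 31.5 and 72.8 in its 1854-nt exon (exact test, adjusted p = 0.00024). These 6 genes were chosen for the text after their values were seen.

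The measures of inclusion did not always give the same value. PSI and junction PSI lay more than 20 points apart for 33 long exons in the NesKO (11.8%), 35 in the E18 wild type (12.3%), 28 in the EmxKO (9.69%) and 27 in the P1 library labelled wild type (9.38%). Over all cassette exons these shares were 3.12%, 2.94%, 2.4% and 2.38%. The gap went in both directions. In the E18 wild type the long exons of 300 to under 500 nt had 7 with a higher PSI and 13 with a lower PSI than junction PSI, and those of 1000 nt or more had 0 and 6.

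The gap also touched the differences. Of the 34 long exons that differed at E18 by PSI, 20 (58.8%) differed by 10 points in the same direction by junction PSI, against 76.9% of the cassette exons that differed, and 9 were within 5 points of 0. At P1 it was 25 of 37 (67.6%) against 80.4%. The long exons that differed had fewer reads, with a median of 100 junction reads in the lower of both libraries at E18 against 158 for the others, and of 103 against 307 at P1. The same held for all cassette exons, with 88 against 186 at E18 and 126 against 314 at P1. Uneven inclusion junctions were about as frequent in long exons, with 59 of 298 (19.8%) more than 5 fold apart over the 4 libraries, against 17.6% of all cassette exons. In 5 long exons, of *Gas5* (372 nt), *Slc38a6* (1535 nt), *Safb2* (658 nt) and *Sltm* (415 and 469 nt), PSI was listed at 0 in all libraries although inclusion reads and no skipping reads were counted, as with 101 and 373 inclusion reads for *Safb2* in the NesKO. None of these 5 exons could be among those that differed by PSI, since a value of 0 in all libraries leaves no difference.

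**Figure D4:**
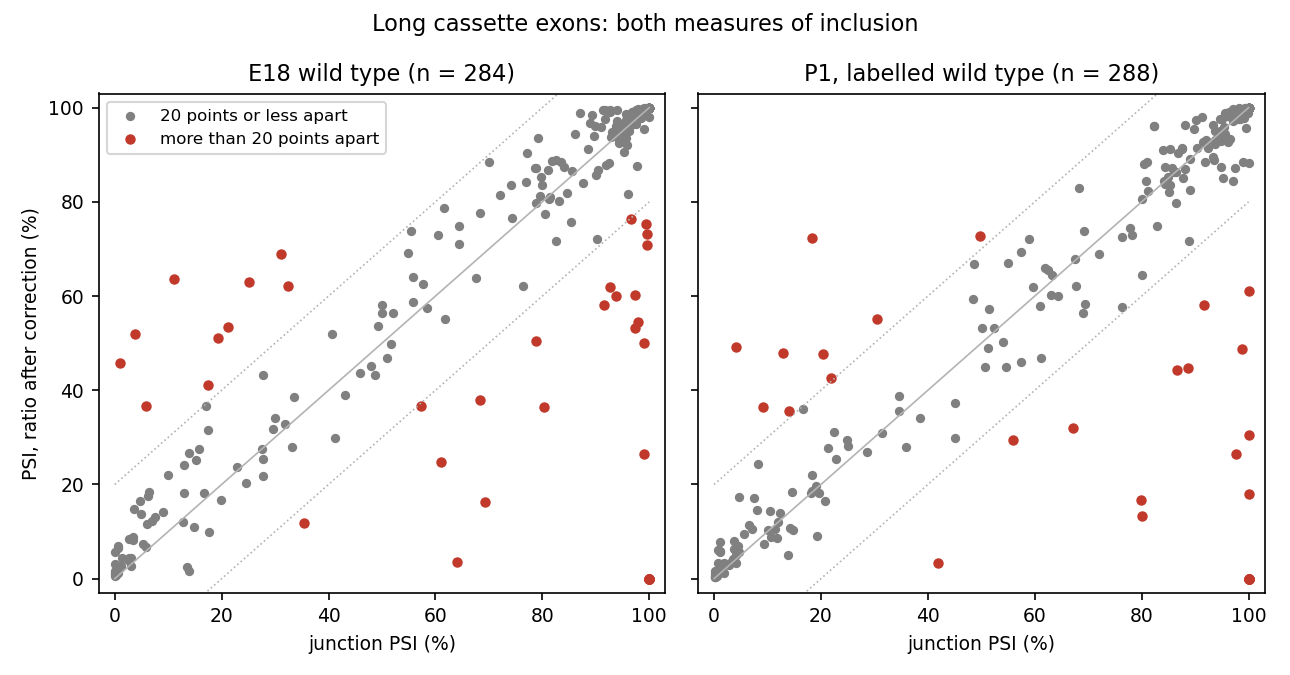
Junction PSI (x axis, percent) and PSI after correction (y axis, percent) of the long exons with at least 20 junction reads in the E18 wild type (284 exons) and the P1 library labelled wild type (288 exons), 1 point per exon, with the line of equality and dotted lines at 20 points. Red points, 35 at E18 and 27 at P1, lie more than 20 points from equality on both sides, and points at a PSI of 0 with a junction PSI of 100 are exons listed at 0 in spite of inclusion reads.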

How the data were processed

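PolyA+ RNA was sequenced in 4 libraries, 1 per group, as paired reads of 100 nt. Per the methods of the study, SpliceTrap was run by the authors on exon duos and trios to estimate inclusion. The processing notes of the submitters name mm9, CASAVA, TopHat and Cufflinks, and their versions are not given in the sources used here. The deposited inclusion ratio is a fraction from 0 to 1, listed before and after a correction by SpliceTrap. The deposited junction reads are counts without normalization. The deposited exon coverage is a signal that equals reads per 100 nt of exon, since coverage times length over 100 gave a whole number for 100% of the values in each library, within 0.01 reads.

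The corrected ratio in percent is the PSI. Junction PSI came from the 3 junction counts alone. Each exon was represented by its best-covered trio, summed over the 4 libraries, and 20 junction reads were required in both libraries compared. A two-sided Fisher's exact test compared the rounded reads of 2 libraries, and the p-values were adjusted by Benjamini-Hochberg over all cassette exons tested. Stages were compared by the squared difference of their log odds ratios over its variance (Wald chi-square, 0.5 added to each count). Intervals are Wilson intervals at the 95% level. These tests, the intervals and the limits of detection speak to counting error alone, and they compare libraries, not genotypes. At the median long exon, 3 reads were 1.89% of the junction reads in the NesKO, 1.75% in the E18 wild type, 1.05% in the EmxKO and 0.86% in the P1 library labelled wild type.

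Genes and coding status came from GENCODE mouse release M21 on GRCm38, matched by the lengths of the exon and its introns on the same chromosome and strand. For the 298 tested long exons the match used the exon and both introns in 275, the exon and 1 intron in 6 and an exon shared with a named trio in 12, and 5 have no name. No coordinates were converted. Named exons are those that differed by 10 points in 1 direction by both measures with an adjusted p below 0.05, the 5 longest exons tested at both stages, and all long exons of 5 gene lists. The exons of 1 gene that these rules name are counted in the totals, left out of its list and not reported here. The members and the lists were chosen with earlier results of these data known. Alternatives were another measure, trio, read minimum, cutoff, length limit or junction. The calculations were tested on simulated data and used Python 3.11.15, numpy 2.4.6, pandas 2.3.3, scipy 1.17.1 and matplotlib 3.10.9. Intron sequence was not analysed here, since no mm9 genome was used.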

Additional observations from a re-analysis of the deposited data

Results flagged for a closer look

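In 7 long exons the change between the libraries of a stage differed between E18 and P1 by the Wald chi-square test, adjusted over all cassette exons tested at both stages. The values are the log2 odds ratio of inclusion at E18 minus that at P1. For *Aen* they were 7.52 (exon of 487 nt) and 7.24 (exon of 601 nt), and these exons share 2 of their 3 junctions. *Ankra2* had 1.79. The value was negative in *Tra2a* with -1.88, *Nasp* with -1.55, *Srsf7* with -1.39 and *Mprip* with -0.77. The test compares 4 libraries, and the P1 library labelled wild type enters each value.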

How the results depend on the processing

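No paired analysis was possible because each group has 1 library and the labels carry no replicate numbers, and leaving out a library leaves no comparison. The main counts of long exons were 34 at E18, 37 at P1 and 71 between the libraries labelled wild type. They moved by over 1.5 times under stricter calls. At a cutoff of 20 points they were 8, 4 and 30. With an adjusted Fisher p below 0.05 besides 10 points they were 9, 11 and 31, and with the less covered inclusion junction in that test 6, 6 and 23. A limit of 200 nt gave 78, 70 and 177 of more exons tested (734, 742 and 713), and a limit of 400 nt gave 43 between the labelled wild types, of fewer exons. All other alternatives kept the counts within 1.5 times, junction PSI with 29, 35 and 59. The count of exons that differ between stages was 7, and 4 with the less covered junction, an alternative chosen after seeing the data together with overlapping exons counted once (33, 35 and 68) and exons whose inclusion junctions were within 5 fold (26, 27 and 54). Of 120 values of the named exons that passed by both measures, 110 kept direction and side of the threshold. For junction PSI and the ratio before correction the exact test used the same reads as the main test. Its side of the threshold could not change there, so these values are no check of it. With the less covered junction, 22 values, passing or not, kept their side and 8 lost the exact test. By junction PSI, 2 values changed sign. Both were under the cutoff of 10 points, *Fut10* at E18 (-0.376) and *Phf8* at P1 (0.00177). The cause was not tested. Depth limits exons with few reads, and the spread between animals is not known.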
